A study of Mus musculus with 10 samples.

Results

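Keratins, junction proteins and basement membrane proteins of squamous epithelium were followed in RNA from neutrophils sorted out of grafted squamous cell carcinomas (SCC). Members were the 39 gene rows of the deposited table whose Ensembl identifiers carry, in mouse GENCODE release M21, the symbols of a fixed list of 15 keratins, the transcription factor Trp63 and 23 genes of cell junctions, basement membrane contact and the cornified layer. All 39 were found among 55385 mouse gene identifiers, and all 39 were tested. The table holds 10 bulk libraries of Tomato+ neutrophils from tumours grown in CatchupIVM-red mice, a strain in which the neutrophil locus Ly6g drives Cre recombinase and a red reporter, with a further Cre-dependent tdTomato reporter. Tumours came from parental Sox2low control cells or from Sox2Hi cells, and the hosts either stayed untreated (naive) or received anti-PDL1/CD40 agonist. There were 3 naive control, 2 treated control, 3 naive Sox2Hi and 2 treated Sox2Hi libraries. The descriptions carry the tag C57 for all 10 libraries and GFP for the control libraries, without saying what the tags stand for. How the Sox2Hi cells were made, whether the cells are 1 clone, and the age and sex of the hosts are not given in the sources used here. The labels do not say whether animals were pooled or whether each replicate was a separate animal, so the p-values measure only the spread between these libraries. Reads of a Y-linked gene, given below, differed within every group, so the libraries of a group were not all repeats of 1 RNA sample.

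Keratins are the intermediate filaments of epithelial cells and are made in pairs of a type I and a type II protein. Basal cells of stratified epithelium make Krt5 with Krt14, cells that leave the basal layer make Krt1 with Krt10, wounded or hyperproliferative epithelium makes Krt6 with Krt16 and Krt17, and simple (single-layered) epithelium makes Krt8 with Krt18, often with Krt7 and Krt19. Squamous carcinomas are known to mix these programmes. Neutrophils belong to the blood lineage and are not known as a source of these filaments, and the cell of origin of the transcripts was not tested here.

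Library totals ran from 13815734 to 22986193 gene counts. The 14 neutrophil markers together took 1.56% to 2.46% of counts in naive control, 3.24% to 3.38% in treated control, 1.59% to 2.17% in naive Sox2Hi and 2.04% to 2.38% in treated Sox2Hi libraries, and each of the 14 had reads in every library. Reads that also fell on 1464 silent odorant and vomeronasal receptor genes made an expected background of 5.02% to 8.37% of counts in naive control, 1.58% and 1.74% in treated control, 3.63% to 3.92% in naive Sox2Hi and 4.04% and 4.96% in treated Sox2Hi libraries. The predicted gene Gm10800 took 0.503% and 0.686% of counts in the treated control libraries and 4.24% to 9.12% in the other 8. Sox2, the gene named by the graft labels, had 3 to 43 reads a library in these neutrophils, of which 52.5% is the expected background. It stood at 1.75, 2.02 and 2.18 CPM in the naive control libraries, 0.223 and 0.7205 CPM in treated control, 0.733, 1.04 and 1.28 CPM in naive Sox2Hi and 0.967 and 1.03 CPM in treated Sox2Hi libraries. The log2 difference of Sox2Hi from control libraries was -0.96 (SE 0.34, edgeR adjusted p = 0.088) when naive and 1.02 (SE 0.50, edgeR adjusted p = 0.16) when treated, and neither was called, so Sox2 reads in these neutrophils check no label. The naive value runs against the label, and all directions below are those of the libraries as labelled. Levels below are CPM, reads scaled to a common library size with TMM factors, and levels of different genes are set against each other only per kb of exon; ratios of reads between genes are compared only between libraries. A gene is called where edgeR's quasi-likelihood test, fitted over 29648 genes, gives a Benjamini-Hochberg adjusted p under 0.05.

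The 39 genes were detected in every library. Summed, they took 0.425, 0.311 and 0.671% in the naive control libraries, 0.224 and 0.142% in treated control, 0.6204, 0.611 and 0.813% in naive Sox2Hi and 0.458 and 0.266% in treated Sox2Hi libraries. The sum was lowest in the treated control libraries and highest in naive Sox2Hi replicate 3. Per kb of exon, the mean over the 10 libraries was highest for Krt18 at 605 CPM per kb, then Sfn at 402, Krt8 at 348, Cldn4 at 287, Krt14 at 190.2, Sprr1a at 97.5, Krt17 at 71.8 and Krt5 at 63.9 CPM per kb. The lowest were Krt80 at 1.29, Krt79 at 1.21 and Krt1 at 0.872 CPM per kb. Expected background made up under 10% of the reads of 28 members, and over 20% for Krt1 at 39.4%, Krt79 at 29.9%, Krt80 at 23.9%, Ivl at 22.8% and Dsg2 at 20.4%.

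Several genes of simple epithelium were higher with the Sox2Hi graft. Krt8 and its partner Krt18 were about 1.99-fold and 2.06-fold higher in naive Sox2Hi than in naive control libraries, and Krt19 and the tight junction protein Cldn4 were 3.48-fold and 4.14-fold higher. All 4 were also higher in the treated Sox2Hi libraries, where Krt7, Krt80, Cdh1 and Epcam joined them. No basal, wound or suprabasal keratin was called between the grafts in that fit. In bulk libraries, fewer cells of a type and less RNA per cell cannot be told apart.

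**Figure D1:**
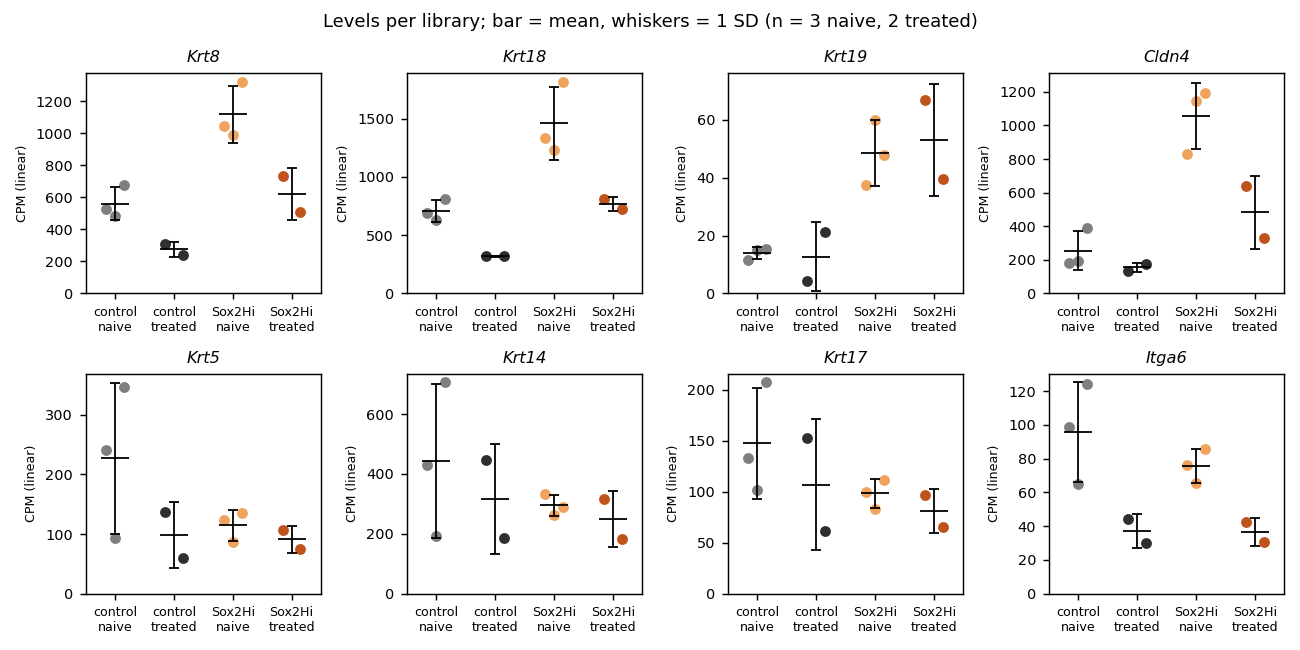
CPM on linear axes for 4 genes of simple epithelium and tight junctions (Krt8, Krt18, Krt19, Cldn4) and 4 basal or wound genes (Krt5, Krt14, Krt17, Itga6) in the 4 groups. Each point is 1 library, the bar is the mean and the whiskers are 1 SD; the naive Sox2Hi points of Krt8 lie between 988 and 1319 CPM, above all 5 control points, while those of Krt5 overlap the naive control points.

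Promoter windows are shown for Krt8, Krt18, Krt7 and Cldn4, which were called higher between the treated grafts. The window of the basal keratin Krt5 is also shown. Krt5 was called lower between the naive grafts in the fit with replicate numbers as a block described below. Each window runs from 250 bases before to 30 bases after the RefSeq start, 5′ to 3′ on the gene's strand, in GRCm38.p6. Windows were matched for 19 of the 39 members. Capitals mark matches, on either strand, to TATAAA (the TATA box letters), CTTTGT or ATTGT (core letters bound by SOX proteins) and GGGCGG (the GC box); the TATAAA and TTTATA matches of Krt8 overlap each other. The letters were picked after the windows had been read. Across 32851 windows of this length, 13.1% hold TATAAA, 17.9% CTTTGT, 29.8% ATTGT and 34.7% GGGCGG on either strand.
Krt8, chr15:102004313-102004592, minus strand: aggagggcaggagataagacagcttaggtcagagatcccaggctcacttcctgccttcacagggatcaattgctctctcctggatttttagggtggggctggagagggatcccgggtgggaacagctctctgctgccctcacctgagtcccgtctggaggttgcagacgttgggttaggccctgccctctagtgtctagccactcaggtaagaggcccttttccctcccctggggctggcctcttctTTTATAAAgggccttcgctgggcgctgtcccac
Krt18, chr15:102027966-102028245, plus strand: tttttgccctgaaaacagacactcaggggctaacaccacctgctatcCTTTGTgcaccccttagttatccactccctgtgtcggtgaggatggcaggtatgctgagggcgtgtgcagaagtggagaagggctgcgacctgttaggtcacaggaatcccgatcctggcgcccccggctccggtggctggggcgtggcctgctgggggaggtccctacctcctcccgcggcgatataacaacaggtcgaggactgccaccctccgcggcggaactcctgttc
Krt7, chr15:101412153-101412432, plus strand: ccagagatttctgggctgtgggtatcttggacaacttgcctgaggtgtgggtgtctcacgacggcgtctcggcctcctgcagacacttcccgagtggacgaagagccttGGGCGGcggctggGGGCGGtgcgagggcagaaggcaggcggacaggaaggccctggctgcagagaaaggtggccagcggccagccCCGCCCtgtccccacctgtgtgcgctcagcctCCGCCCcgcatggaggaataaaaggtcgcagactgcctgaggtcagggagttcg
Cldn4, chr5:134946905-134947184, minus strand: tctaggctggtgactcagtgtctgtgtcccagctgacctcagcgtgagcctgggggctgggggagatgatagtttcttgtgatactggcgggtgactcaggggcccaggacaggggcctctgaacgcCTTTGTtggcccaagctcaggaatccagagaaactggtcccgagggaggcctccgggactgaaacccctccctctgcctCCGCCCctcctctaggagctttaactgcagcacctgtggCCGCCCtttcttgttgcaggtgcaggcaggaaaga
Krt5, chr15:101712876-101713155, minus strand: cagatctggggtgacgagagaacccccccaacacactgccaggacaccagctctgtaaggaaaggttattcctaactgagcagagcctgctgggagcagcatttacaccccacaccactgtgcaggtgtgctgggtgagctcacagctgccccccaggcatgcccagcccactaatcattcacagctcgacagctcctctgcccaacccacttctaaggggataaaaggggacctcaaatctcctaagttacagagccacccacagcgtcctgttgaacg
Krt8 holds overlapping TTTATA and TATAAA matches that begin 3 and 1 bases before the start, in that order. Krt18 holds CTTTGT 203 bases before the start, and Cldn4 holds it 123 bases before the start beside 2 GC boxes. Krt7 holds 4 GC boxes, and Krt5 none of these letters. Of the 20 member windows, 6 hold TATAAA, 4 CTTTGT, 2 ATTGT and 7 GGGCGG. A match is a string of letters, not a measured site.

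Krt8 (ENSMUSG00000049382, chr15:101996698-102004482, GRCm38) and Krt18 (ENSMUSG00000023043, chr15:102028180-102032027) lie 23698 bases apart on opposite strands of chromosome 15, and Krt7 (ENSMUSG00000023039, chr15:101411043-101430313) lies on the same chromosome. Krt19 (ENSMUSG00000020911, chr11:100140810-100148665) lies on chromosome 11. Krt8, the type II keratin of simple epithelium, stood at 524, 484 and 674 CPM in the naive control libraries, 309 and 241 CPM in treated control, 1043, 988 and 1319 CPM in naive Sox2Hi and 734 and 506 CPM in treated Sox2Hi libraries. Its type I partner Krt18 stood at 693, 626 and 810.1 CPM in the naive control libraries, 323 and 317 CPM in treated control, 1334, 1233 and 1816 CPM in naive Sox2Hi and 811 and 727 CPM in treated Sox2Hi libraries. In both genes the lowest Sox2Hi library lay above the highest control library of the same treatment.
Krt19, a type I keratin of ducts and simple epithelium, stood at 11.4, 14.99 and 15.4 CPM in the naive control libraries, 4.32 and 21.1 CPM in treated control, 37.4, 60.1 and 47.9 CPM in naive Sox2Hi and 66.9 and 39.5 CPM in treated Sox2Hi libraries. Krt7, its usual type II companion, stood at 8.85, 18.6 and 12.2 CPM in the naive control libraries, 6.55 and 8.83 CPM in treated control, 16.7, 35.95 and 34.7 CPM in naive Sox2Hi and 36.7 and 23.3 CPM in treated Sox2Hi libraries. The grafts did not overlap for Krt19 at either treatment. For Krt7 they overlapped only when naive, where control replicate 2 exceeded Sox2Hi replicate 1.

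In the naive tumours 4 of the 39 members were higher and 0 lower with the Sox2Hi graft, against 0.911% higher and 4.9% lower (5.81% in all) over all genes tested. The members' median log2 fold change was -0.26, against -0.37 over all genes. The split over all genes turned with the scaling: 494 genes were higher and 64 lower with factors from all genes, where 4 members were higher and 0 lower, and 3635 and 423 with DESeq2, where 8 members were higher and 0 lower. Krt8 was 1117 ± 177 CPM (SD, n = 3) against 560.5 ± 100.2 CPM (SD, n = 3) (log2 fold change 0.99, SE 0.20, edgeR adjusted p = 0.038). Krt18 was 1461 ± 312 CPM (SD, n = 3) against 709.9 ± 93.03 CPM (SD, n = 3) (log2 fold change 1.04, SE 0.17, edgeR adjusted p = 0.038). Krt19 differed by 1.80 (SE 0.42, edgeR adjusted p = 0.04), Cldn4 by 2.05 (SE 0.32, edgeR adjusted p = 0.038). Close to the threshold were Krt7 with 1.14 (SE 0.33, edgeR adjusted p = 0.056), Cdh1 with 0.81 (SE 0.23, edgeR adjusted p = 0.055) and Epcam with 0.65 (SE 0.18, edgeR adjusted p = 0.056).

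The labels state no pairing, but naive libraries with the same replicate number deviated alike from their group means, as given under the processing below. A fit of these 6 libraries that takes the number as a block was chosen after seeing the data. It called 17 members, 8 higher and 9 lower, against 4.5% higher and 15.7% lower (20.2% in all) over all genes in that fit. The 8 higher genes were Krt7, Krt8, Krt18, Krt19, Krt80, Cdh1, Epcam and Cldn4, that is, those called in the treated tumours. The 9 lower were the basal and wound keratins Krt5 and Krt17, Krt1, Krt79, Trp63, Dsc3, Col17a1, Lgals7 and Ivl. Krt5 gave -0.84 (SE 0.17, edgeR adjusted p = 0.0064), Col17a1 -0.99 (SE 0.17, edgeR adjusted p = 0.0023), Dsc3 -1.28 (SE 0.24, edgeR adjusted p = 0.0035) and Trp63 -0.52 (SE 0.14, edgeR adjusted p = 0.018) in the blocked fit. Without the block, the fit that all other calls below come from, these 4 gave -0.98 (SE 0.40, edgeR adjusted p = 0.13), -1.05 (SE 0.38, edgeR adjusted p = 0.094), -1.31 (SE 0.55, edgeR adjusted p = 0.13) and -0.56 (SE 0.29, edgeR adjusted p = 0.21).
Without the block, none of the naive graft calls survived leaving out any 1 naive library other than control replicate 3, and 7 members, all higher, were called without that one, when 501 genes were higher and 5748 lower of 29306 tested. In the other 5 such fits at most 8 genes in all were called (edgeR).

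In the treated tumours 8 members were higher and 0 lower with the Sox2Hi graft, against 9.69% higher and 3.29% lower (13% in all) over all genes. The members' median was -0.037, against 0.47 over all genes. Krt18 was 769 ± 59.3 CPM (SD, n = 2) against 320.2 ± 4.31 CPM (SD, n = 2) (log2 fold change 1.26, SE 0.21, edgeR adjusted p = 0.013). Krt8 differed by 1.17 (SE 0.24, edgeR adjusted p = 0.02), Krt7 by 1.96 (SE 0.41, edgeR adjusted p = 0.021) and Krt19 by 2.06 (SE 0.52, edgeR adjusted p = 0.031). All 4 simple-epithelium keratins were therefore called here.
Krt80, a type II keratin of low level, stood at 5.35, 8.28 and 6.24 CPM in the naive control libraries, 4.99 and 5.58 CPM in treated control, 8.704, 9.83 and 10.5 CPM in naive Sox2Hi and 13.2 and 9.81 CPM in treated Sox2Hi libraries. It differed by 1.12 (SE 0.25, edgeR adjusted p = 0.024), with no overlap between the treated grafts, although 23.9% of its reads is expected background.
With 2 libraries a group the calls were sensitive to single ones: 4 members were called higher without control replicate 1 (Krt1, Krt8, Krt18, Cdh1), 2 were called without control replicate 2 (Krt19 higher and Krt79 lower), 5 higher without Sox2Hi replicate 2 and 0 without Sox2Hi replicate 1. Over all genes these fits called 1003 higher and 243 lower of 32353, 46 and 43 of 32332, 739 and 163 of 32260, and 77 and 4 of 32277, in that order (edgeR). Here, and wherever a treated library is left out below, the lone library of its group is assumed to vary like the other groups. With scaling factors from all genes, 2 higher (Krt7, Krt18) and 2 lower (Cldn1, Lamb3) were called, and the all-gene median was 0.13. DESeq2 called 3 members higher (Krt7, Krt18, Cldn4) and 4 lower (Krt79, Cldn1, Lama3, Lamb3), against 602 higher and 4805 lower over all genes.

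**Figure D2:**
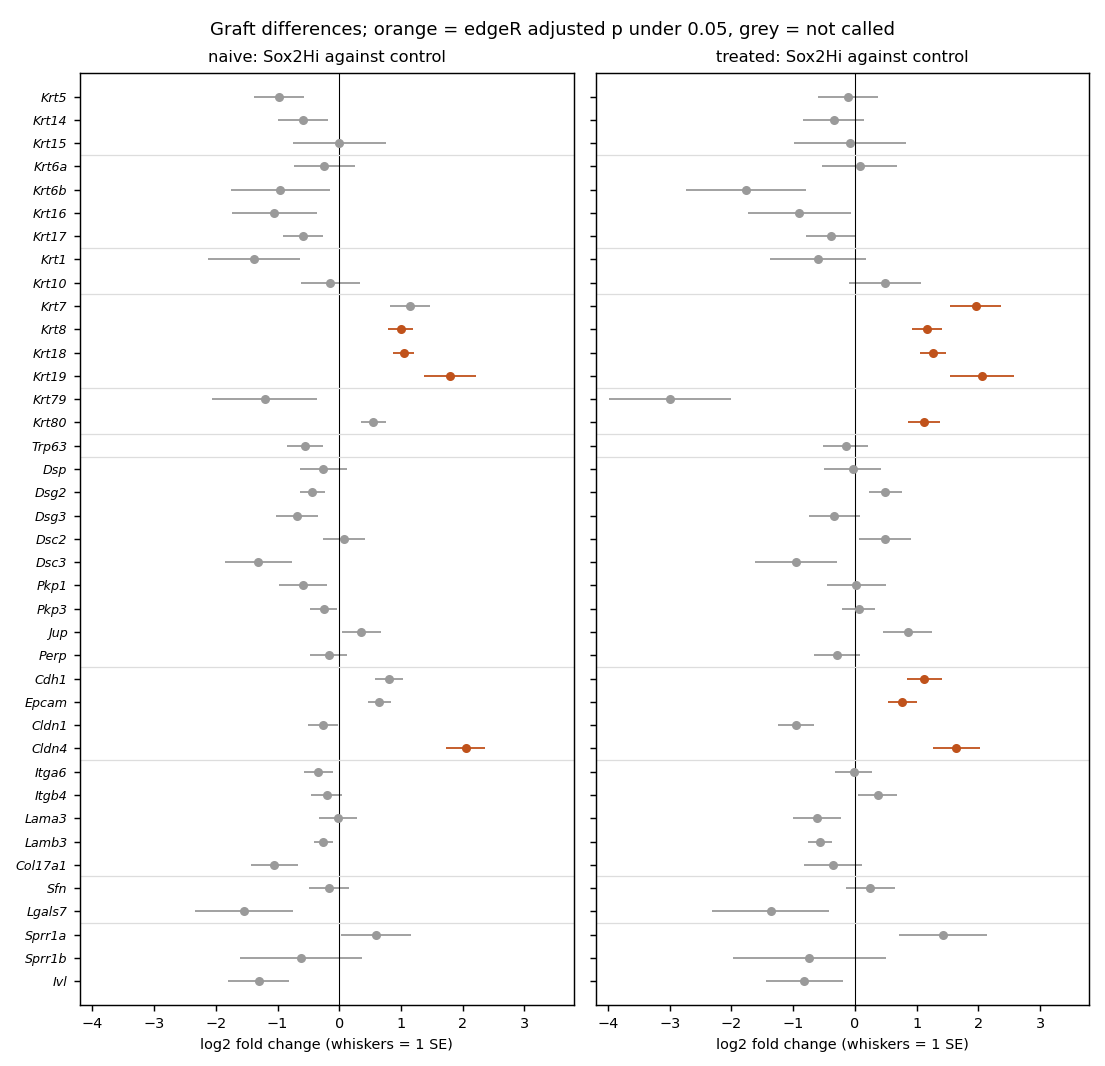
Log2 fold changes of the 39 genes, Sox2Hi against control, in naive tumours (left) and treated tumours (right); points are edgeR estimates, whiskers 1 SE, orange points have an adjusted p under 0.05 and grey lines part the gene classes. The simple-epithelium keratins and Cldn4 lie right of 0 in both panels, from 0.99 for naive Krt8 to 2.06 for treated Krt19.

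The other junction proteins of the called group followed. Cldn4 (ENSMUSG00000047501, chr5:134945119-134946934), a claudin of tight junctions, stood at 183, 196 and 387 CPM in the naive control libraries, 135 and 174 CPM in treated control, 828, 1148 and 1191 CPM in naive Sox2Hi and 638 and 327 CPM in treated Sox2Hi libraries. Its lowest naive Sox2Hi library was above every control library. Treated Sox2Hi exceeded treated control by 1.64 (SE 0.38, edgeR adjusted p = 0.025).
Epcam (ENSMUSG00000045394, chr17:87635979-87651129), an epithelial cell adhesion molecule, stood at 123, 87.3 and 151 CPM in the naive control libraries, 62.7 and 62.7 CPM in treated control, 175, 180.0 and 212 CPM in naive Sox2Hi and 104 and 110.1 CPM in treated Sox2Hi libraries. Cdh1 (ENSMUSG00000000303, chr8:106603351-106670246), the E-cadherin of adherens junctions, stood at 18.3, 12.97 and 20.97 CPM in the naive control libraries, 12.8 and 7.68 CPM in treated control, 31.6, 25.2 and 34.8 CPM in naive Sox2Hi and 24.3 and 20.3 CPM in treated Sox2Hi libraries. For both genes every Sox2Hi library lay above every control library of the same treatment. Treated Sox2Hi exceeded treated control by 1.13 (SE 0.29, edgeR adjusted p = 0.032) for Cdh1 and 0.77 (SE 0.23, edgeR adjusted p = 0.047) for Epcam.
Cldn1, a claudin of the epidermal barrier, ran the other way at 11.5, 11.4 and 15.5 CPM in the naive control libraries, 25.3 and 40.3 CPM in treated control, 13.4, 9.83 and 8.85 CPM in naive Sox2Hi and 13.4 and 20.5 CPM in treated Sox2Hi libraries. The treated graft difference was -0.96 (SE 0.30, edgeR adjusted p = 0.052) and was not called.

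Macrophage markers differed between the naive grafts as well. The 7 markers summed to 0.0704% to 0.105% of counts in naive control and 0.113% to 0.154% in naive Sox2Hi libraries, and all 7 had reads in every library. In the treated groups the same sum was 0.0373% to 0.0709% in control and 0.0641% to 0.116% in Sox2Hi libraries. The expected background share was higher in naive control than in naive Sox2Hi libraries and lower in treated control than in treated Sox2Hi libraries. With the background subtracted, 0 members were called in the naive tumours, where edgeR called 1 of 21439 genes in all (4234 with an unadjusted p under 0.05). Krt8 then gave 0.88 with an edgeR adjusted p of 0.051 and Krt18 0.92 with 0.050. In the treated tumours 5 members were called higher and 0 lower on the subtracted counts, against 461 higher and 123 lower over all 21439 genes.
Of the 10 marker lists, summed on the CPM scale of the members, 5 parted the naive grafts without overlap. In Sox2Hi against control libraries macrophage markers stood at 1002 to 1379 CPM against 610.2 to 941 CPM and the 4 B and plasma cell markers at 147 to 679 CPM against 56.2 to 112 CPM. Lower with the Sox2Hi graft were the 5 endothelial markers at 35.3 to 39.3 CPM against 40.7 to 48.1 CPM, the 4 erythroid markers at 271 to 569 CPM against 575 to 1492 CPM and the 4 melanocyte markers at 6 to 8.21 CPM against 12.2 to 15.9 CPM. As shares of counts the erythroid sums of the naive grafts overlapped, at 0.0307% to 0.0693% against 0.0626% to 0.166%. Between the treated grafts 3 of the 10 parted. The neutrophil markers stood at 22995 to 23329 CPM against 44750.0 to 47692 CPM in Sox2Hi against control libraries, the 4 mast cell markers at 20.8 to 51.002 CPM against 2.46 to 19.5 CPM and the melanocyte markers at 11.1 to 11.4 CPM against 5.28 to 6.699 CPM. As shares of counts, the fibroblast and endothelial sums of the treated grafts did not overlap either, and were higher with the Sox2Hi graft. Expected background was not taken off the marker sums. The melanocyte markers are low, with Mlana at 0.0492 to 0.449 CPM and Pmel at 0.659 to 2.03 CPM over all libraries. Their sum moved in the direction of the expected background share, here and in the treatment comparisons below, so it cannot be read as melanocytes alone. The parts of these cell types in the graft results were not tested.
Libraries also differed in the Y-linked gene Ddx3y, with at most 8 reads in 4 libraries (1 of each group) and at least 1007 in the other 6. Within the libraries with few Ddx3y reads the Krt8 level in Sox2Hi was 1.99 times that in control when naive and 1.64 times when treated, and within the rest 1.99 and 3.05 times. For Cldn4 these were 4.52 and 2.43, and 4.02 and 3.66 times. The treated ratios, and the naive ones among libraries with few Ddx3y reads, compare 1 library with 1. Other members turned direction between the classes when treated: the ratio was 0.551 and 1.79 for Krt5, 0.644 and 2.296 for Sfn and 0.418 and 1.68 for Col17a1.

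The ratio of simple to basal keratin reads needs no library factors, but it moves with Krt5 and Krt14 as well as with Krt8 and Krt18. The reads of Krt8 and Krt18 over those of Krt5 and Krt14, not divided by exon length, gave 1.81, 3.89 and 1.41 in the naive control libraries, 1.08 and 2.28 in treated control, 5.201, 6.35 and 7.3995 in naive Sox2Hi and 3.67 and 4.77 in treated Sox2Hi libraries. At each treatment every Sox2Hi library lay above every control library, with naive control replicate 2 the highest control. That replicate had the lowest Krt5, Krt14, Krt8 and Krt18 levels of its group, so its high ratio rests on the basal keratins. The ratio was not tested, since it is a score over chosen members.

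**Figure D3:**
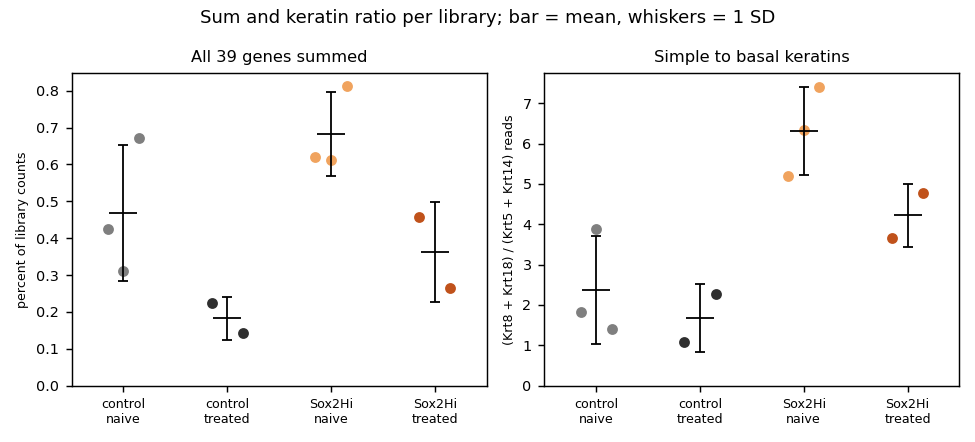
Left, the 39 genes' share of library counts in percent; right, the ratio of Krt8 and Krt18 reads to Krt5 and Krt14 reads, both on linear axes from 0. Points are libraries, bars means and whiskers 1 SD; the ratio spans 1.41 to 3.89 in naive control and 5.201 to 7.3995 in naive Sox2Hi libraries.

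Basal keratins overlapped between the grafts. Krt5 stood at 241, 94.1 and 346 CPM in the naive control libraries, 137 and 59.6 CPM in treated control, 123, 85.9 and 136 CPM in naive Sox2Hi and 106 and 75.4 CPM in treated Sox2Hi libraries. Krt14, its type I partner, stood at 430.3, 191 and 706 CPM in the naive control libraries, 447 and 185 CPM in treated control, 334, 264 and 288 CPM in naive Sox2Hi and 315 and 183 CPM in treated Sox2Hi libraries. Krt15, a keratin of basal cells and the hair follicle bulge, stood at 8.23, 7.17 and 24.5 CPM in the naive control libraries, 20.3 and 65.4 CPM in treated control, 4.74, 31.3 and 4.28 CPM in naive Sox2Hi and 62.2 and 18.9 CPM in treated Sox2Hi libraries. Naive control replicate 3 held the highest Krt5 and Krt14 levels, and naive control replicate 2 the lowest of its group for all 3. Between the grafts, Krt5 was called lower in the blocked naive fit, with limma-voom and with the title number as a block over all libraries, when naive in each case, and Krt14 and Krt15 in no alternative run.
Trp63 encodes p63, the transcription factor that maintains the basal layer, and stood at 55.8, 32.9 and 70.4 CPM in the naive control libraries, 35.1 and 19.99 CPM in treated control, 36.7, 29.8 and 41.7 CPM in naive Sox2Hi and 30.9 and 18.7 CPM in treated Sox2Hi libraries. It again peaked in naive control replicate 3. Reads of Krt14, Krt16 and Krt17, of Krt6a and Krt6b, and of Sprr1a and Sprr1b may be shared between these closely similar genes, so their single levels are uncertain.

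Of the 4 wound keratins none was called in any contrast of the fit over all libraries, and Krt17 was called lower in the blocked naive fit. Krt17 stood at 133, 102 and 207 CPM in the naive control libraries, 153 and 61.3 CPM in treated control, 99.9, 83.4 and 112 CPM in naive Sox2Hi and 96.6 and 65.8 CPM in treated Sox2Hi libraries. Krt6a stood at 68.9, 26.2 and 140.1 CPM in the naive control libraries, 96.3 and 34.2 CPM in treated control, 75.4, 62.4 and 61.03 CPM in naive Sox2Hi and 91.9 and 45.9 CPM in treated Sox2Hi libraries. Krt16 stood at 21.2, 5.28 and 51.9 CPM in the naive control libraries, 59.997 and 13.3 CPM in treated control, 20.8, 8.84 and 8.31 CPM in naive Sox2Hi and 23.7 and 15.5 CPM in treated Sox2Hi libraries. Each spanned more within the naive control group than the groups' means differed, and Krt6b ranged from 1.63 to 48.8 CPM.

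With anti-PDL1/CD40 agonist, the simple keratins Krt8 and Krt18 and the hemidesmosome integrins Itga6 and Itgb4 were lower in control tumours. The other 2 simple keratins were not called, with -0.77 (SE 0.38, edgeR adjusted p = 0.1) for Krt7 and -0.12 (SE 0.47, edgeR adjusted p = 0.83) for Krt19. In these tumours 10 of the 39 members fell (Krt5, Krt8, Krt18, Trp63, Dsg2, Jup, Cdh1, Epcam, Itga6, Itgb4) and 2 rose (Krt79, Cldn1), against 36.1% lower and 12.5% higher (48.6% in all) over all genes tested. The share of members called is therefore below that over all genes. Over the 39 members the median log2 fold change was -0.46, against -0.72 over all genes tested. Itga6 fell by 1.37 (SE 0.28, edgeR adjusted p = 0.003), Krt18 by 1.15 (SE 0.20, edgeR adjusted p = 0.0014) and Krt8 by 1.03 (SE 0.23, edgeR adjusted p = 0.0045).
The number that fell depended on the scaling. With factors from all genes the all-gene median was -0.30 and 2 members fell (Krt18, Itga6), when 4482 of 29648 genes fell and 5554 rose. With library totals alone the median was -1.36 and 24 members fell, when 20107 genes fell and 1507 rose. DESeq2 called 1 member lower (Itga6) and 3 higher, and 1349 genes lower and 6335 higher. The members' counts thus moved with those over all genes. Itga6 and Cldn1 were called in every alternative run, Krt18 in all but DESeq2.

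Itga6 (ENSMUSG00000027111, chr2:71745616-71858416) and Itgb4 (ENSMUSG00000020758, chr11:115974709-116008412) form the integrin that anchors basal cells to the basement membrane. Itga6 stood at 98.5, 65.1 and 124 CPM in the naive control libraries, 44.1 and 30.1 CPM in treated control, 76.3, 65.3 and 85.4 CPM in naive Sox2Hi and 42.2 and 30.8 CPM in treated Sox2Hi libraries. Itgb4 stood at 19.4, 14.6 and 23.8 CPM in the naive control libraries, 10.3 and 7.08 CPM in treated control, 17.8, 13.4 and 18.9 CPM in naive Sox2Hi and 14.3 and 8.14 CPM in treated Sox2Hi libraries. In control tumours the treated libraries lay below every naive library for both genes, and Itgb4 fell by 1.15 (SE 0.30, edgeR adjusted p = 0.0095).
The other basement membrane genes were not called with treatment in the fit over all libraries. Col17a1, the collagen of the hemidesmosome, stood at 54.4, 34.8 and 93.6 CPM in the naive control libraries, 44.4 and 17.6 CPM in treated control, 35.2, 21.6 and 31.2 CPM in naive Sox2Hi and 29.6 and 18.6 CPM in treated Sox2Hi libraries. Lama3, a chain of laminin-332, stood at 37.3, 31.5 and 49.6 CPM in the naive control libraries, 39.8 and 14.4 CPM in treated control, 39.4, 31.8 and 45.7 CPM in naive Sox2Hi and 21.03 and 14.3 CPM in treated Sox2Hi libraries, and its partner chain Lamb3 at 38.1, 38.3 and 49.9 CPM in the naive control libraries, 46.5 and 40.05 CPM in treated control, 34.4, 33.98 and 37.1 CPM in naive Sox2Hi and 30.1 and 28.3 CPM in treated Sox2Hi libraries. Lamb3 stayed within 28.3 to 49.9 CPM in all 10 libraries. Col17a1 was lower in the blocked naive graft comparison as given above, and Lamb3 in the treated graft comparison with factors from all genes and with DESeq2.

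Cldn1 rose in treated control tumours, where both libraries lay above all 3 naive ones (log2 fold change 1.36, SE 0.27, edgeR adjusted p = 0.0026). Cdh1 fell by 0.77 (SE 0.27, edgeR adjusted p = 0.032), Epcam by 0.94 (SE 0.21, edgeR adjusted p = 0.005), Krt5 by 1.21 (SE 0.47, edgeR adjusted p = 0.049) and Trp63 by 0.95 (SE 0.34, edgeR adjusted p = 0.037). The call of Krt5 is at the threshold, and the naive and treated control libraries of Krt5 and Trp63 overlapped. Without control treated replicate 2, the calls of Krt5, Krt8, Trp63, Dsg2, Jup, Cdh1 and Itgb4 were lost, and without control treated replicate 1, 1 member was called higher and 17 lower, against 2799 genes higher and 8162 lower of 32353.

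Markers of several other cell types were lower in the same libraries. The 7 fibroblast genes summed to 0.0304% to 0.0873% of counts in naive control, 0.00636% to 0.00725% in treated control, 0.0544% to 0.0813% in naive Sox2Hi and 0.00863% to 0.0328% in treated Sox2Hi libraries, and all 7 had reads in every library. On the CPM scale 6 of the 10 lists parted treated from naive control libraries. Fibroblast markers stood at 87.8 to 102 CPM against 274 to 757 CPM, erythroid markers at 52.5 to 319 CPM against 575 to 1492 CPM, mast cell markers at 2.46 to 19.5 CPM against 29.9 to 212 CPM and melanocyte markers at 5.28 to 6.699 CPM against 12.2 to 15.9 CPM, in treated against naive libraries. Higher were the neutrophil markers at 44750.0 to 47692 CPM against 13519.7 to 22115 CPM and the 7 T and NK cell markers at 114 to 421 CPM against 44.2 to 73.8 CPM. Endothelial and dendritic cell sums were lower without overlap only as shares of counts. As shares, the T and NK cell sums overlapped. Gm10800 was also lowest in the treated control libraries, as given above. The melanocyte sum again moved in the direction of the expected background share. The part of other cell types and of these library differences in the keratin changes was not tested.

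In Sox2Hi tumours 3 members fell with treatment (Krt18, Epcam, Itga6) and none rose (edgeR; 9 members had an unadjusted p under 0.05), against 1.66% lower and 3.36% higher (5.02% in all) over all genes. Krt18 fell by 0.93 (SE 0.20, edgeR adjusted p = 0.022), Itga6 by 1.05 (SE 0.27, edgeR adjusted p = 0.047) and Epcam by 0.82 (SE 0.21, edgeR adjusted p = 0.045). These 3 also fell in control tumours. On the CPM scale 7 of the 10 marker lists parted treated from naive Sox2Hi libraries. Lower were erythroid markers at 23.7 to 61.6 CPM against 271 to 569 CPM, B and plasma cell markers at 22.4 to 111 CPM against 147 to 679 CPM and fibroblast markers at 98.8 to 317 CPM against 480.3 to 667 CPM. Higher were neutrophil markers at 22995 to 23329 CPM against 13077 to 19425 CPM, T and NK cell markers at 138 to 234 CPM against 32.8 to 119 CPM, endothelial markers at 39.5 to 41.4 CPM against 35.3 to 39.3 CPM and melanocyte markers at 11.1 to 11.4 CPM against 6 to 8.21 CPM. Dendritic cell sums were lower without overlap only as shares of counts. As shares, the neutrophil, the T and NK cell and the endothelial sums overlapped. The part of these cell types in the changes was not tested. Krt8 gave -0.85 (SE 0.23, edgeR adjusted p = 0.051) and Cldn4 -1.13 (SE 0.35, edgeR adjusted p = 0.084), both short of the threshold. Without naive Sox2Hi replicate 3 no member was called with edgeR, against 322 genes higher and 45 lower of 29659. Without naive replicate 1, 1 was called lower, against 919 genes higher and 276 lower of 29480. Without naive replicate 2, 1 was called higher and 1 lower, against 707 and 179 of 29599. The calls of Krt18, Epcam and Itga6 were also lost without either treated Sox2Hi library, which leaves 1 library in that group.

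**Figure D4:**
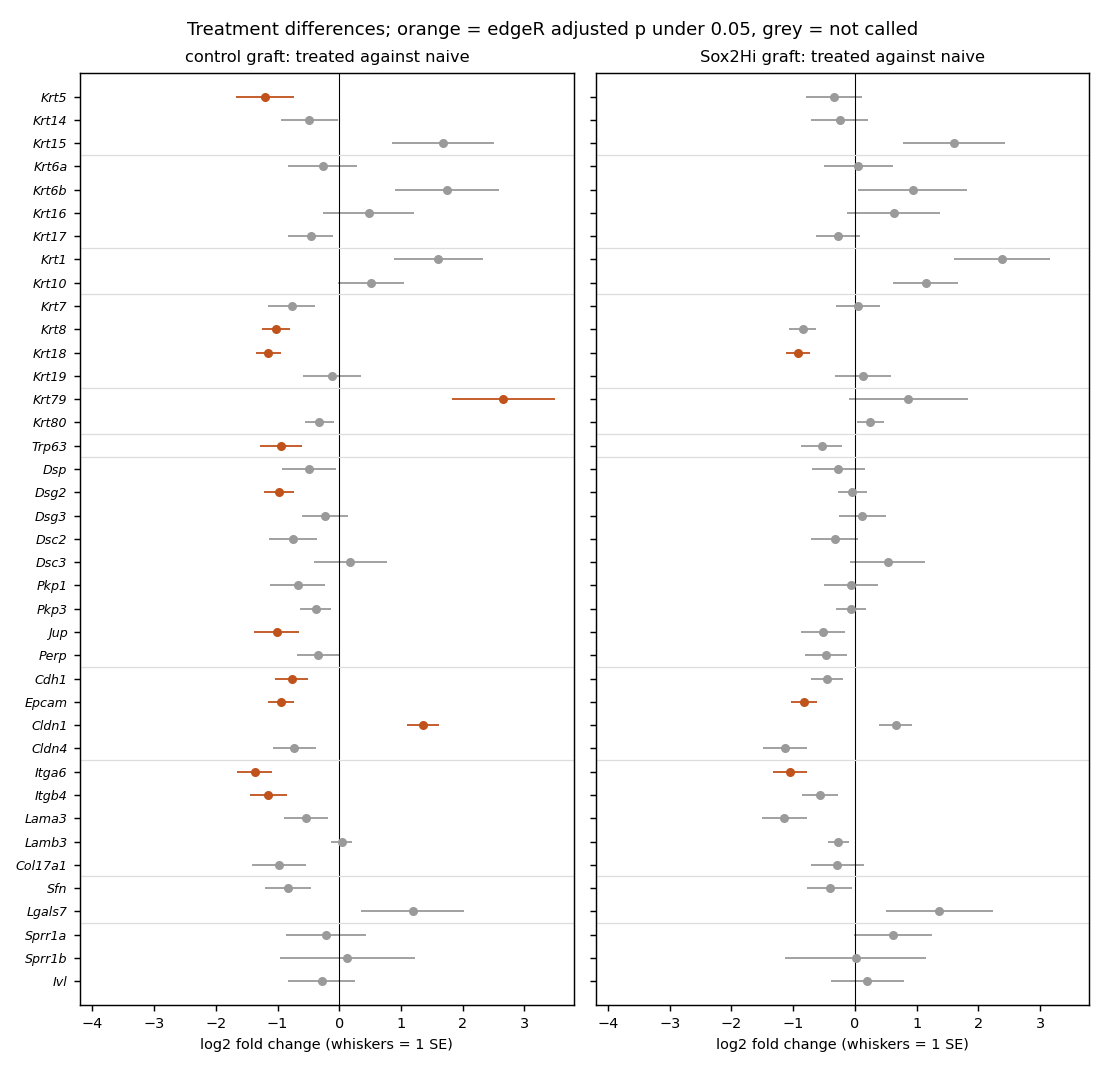
Log2 fold changes of the 39 genes, treated against naive, in control tumours (left) and Sox2Hi tumours (right); points are edgeR estimates, whiskers 1 SE, orange points have an adjusted p under 0.05 and grey lines part the gene classes. Krt18 and Itga6 lie left of 0 in both panels, at -1.15 and -1.37 in control and -0.93 and -1.05 in Sox2Hi tumours.

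Whether treatment acted unequally in the grafts was tested with the interaction term, where 0 members were called with edgeR (1 with an unadjusted p under 0.05), against 31.2% over all genes, 26.8% higher and 4.41% lower. DESeq2 called 3 lower (Cldn1, Lama3, Lamb3), with 1183 genes higher and 6488 lower over all genes, and limma-voom called Dsg2 higher, with 7600 higher and 1844 lower. Dsg2, a desmoglein, came closest at 0.93 (SE 0.34, edgeR adjusted p = 0.052). Without control treated replicate 1, 5 members were called higher, as were 6737 of 32353 genes. For Krt8 and Krt18 the interaction was 0.18 (SE 0.31, edgeR adjusted p = 0.67) and 0.22 (SE 0.27, edgeR adjusted p = 0.53). The members' median was 0.32, against 0.85 over all genes.

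Desmosome genes join cells through cadherins (Dsg2, Dsg3, Dsc2, Dsc3) and plaque proteins (Dsp, Jup, Pkp1, Pkp3, with the membrane protein Perp). Of the 9, Dsg2 and Jup fell with treatment in control tumours and none was called between the grafts or in Sox2Hi tumours in the fit over all libraries, while Dsc3 was lower in the blocked naive fit. Dsg2 stood at 16.2, 17.2 and 15.4 CPM in the naive control libraries, 10.3 and 6.36 CPM in treated control, 15.1, 9.83 and 11.2 CPM in naive Sox2Hi and 12.1 and 11.2 CPM in treated Sox2Hi libraries. Jup, the plaque protein plakoglobin, stood at 17.98, 13.75 and 33.7 CPM in the naive control libraries, 14.1 and 7.56 CPM in treated control, 27.5, 24.6 and 31.6 CPM in naive Sox2Hi and 23.4 and 15.6 CPM in treated Sox2Hi libraries. Dsg2 fell by 0.97 (SE 0.24, edgeR adjusted p = 0.0082) and Jup by 1.02 (SE 0.37, edgeR adjusted p = 0.039), while naive and treated control libraries of Jup overlapped.
Perp stood at 122, 63.8 and 179 CPM in the naive control libraries, 108 and 82.97 CPM in treated control, 114, 104 and 105 CPM in naive Sox2Hi and 97.4 and 58.97 CPM in treated Sox2Hi libraries. Dsp, the plakin that binds keratin to the desmosome, stood at 46.9, 25.5 and 73.8 CPM in the naive control libraries, 50.5 and 19.03 CPM in treated control, 45.3, 35.8 and 40.9 CPM in naive Sox2Hi and 41.998 and 25.6 CPM in treated Sox2Hi libraries, and Dsc2 at 32.2, 16.2 and 57.2 CPM in the naive control libraries, 16.8 and 24.98 CPM in treated control, 39.9, 40.01 and 31.2 CPM in naive Sox2Hi and 32.03 and 26.9 CPM in treated Sox2Hi libraries. All 3 peaked in naive control replicate 3. Over all 10 libraries Dsg3 ranged from 10.3 to 33.9, Dsc3 from 4.02 to 28.7, Pkp1 from 7.4996 to 33.9 and Pkp3 from 8.53 to 15.9 CPM.

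Krt79, Krt1, Krt10, Krt6b and Lgals7 were highest in 1 library, control treated replicate 1. Krt79, a keratin of the hair follicle opening and its glands, stood at 2.198, 2.09 and 4.92 CPM in the naive control libraries, 38.2 and 1.201 CPM in treated control, 1.61, 1.43 and 0.984 CPM in naive Sox2Hi and 2.66 and 2.24 CPM in treated Sox2Hi libraries. Its call in treated control tumours (log2 fold change 2.66, SE 0.83, edgeR adjusted p = 0.022) rests on control treated replicate 1, which had 513 reads against 20 in replicate 2. Without that library the change was -1.40 with an edgeR adjusted p of 0.067.
That library held Krt1 at 15.6 CPM, Krt10 at 20.2 CPM, Krt6b at 48.8 CPM and Lgals7, which encodes galectin-7, at 59.7 CPM. In control treated replicate 2 these were 0.961, 3.96, 4.92 and 5.103 CPM. None of the 4 was called in a contrast of the fit over all libraries, and Krt1 and Lgals7 were lower in the blocked naive fit. Without control treated replicate 2, the treatment values of these genes in control tumours rest on control treated replicate 1 alone, so no call is given.

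**Figure D5:**
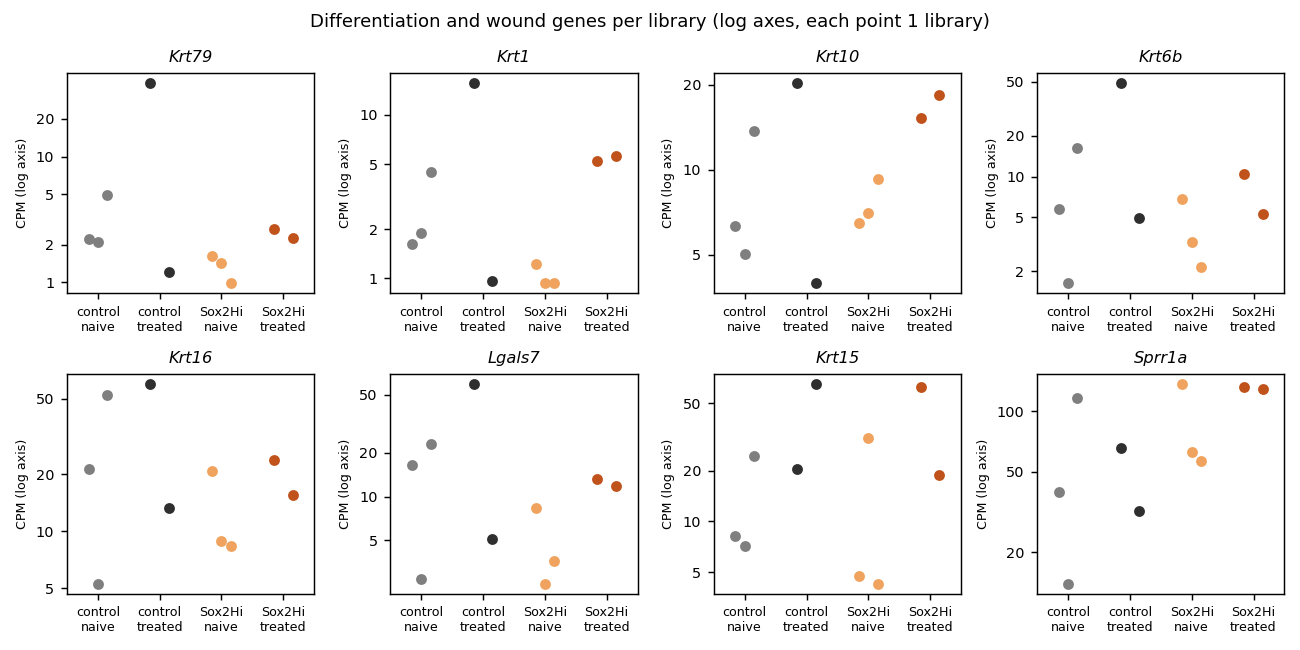
CPM on log axes for 8 differentiation and wound genes (Krt79, Krt1, Krt10, Krt6b, Krt16, Lgals7, Krt15, Sprr1a) in the 4 groups, each point 1 library. The first treated control library stands at 38.2 CPM for Krt79 and the second at 1.201, while for Krt15 the second is the higher one.

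Suprabasal keratins in Sox2Hi tumours had treated libraries above all naive ones, but neither was called in the fit over all libraries. Krt1 gave 2.38 (SE 0.78, edgeR adjusted p = 0.096) and Krt10 1.15 (SE 0.52, edgeR adjusted p = 0.21), and both were called in the fit of the Sox2Hi libraries alone (edgeR adjusted p = 0.0032 and 0.016). Expected background is 107% of the Krt1 reads in naive Sox2Hi, 68.01% in naive control and 29.4% in treated Sox2Hi libraries, so both the treatment and the naive graft values of Krt1 are set against a level at or near background. Sfn, a 14-3-3 protein of squamous cells, stood at 735, 491 and 1172 CPM in the naive control libraries, 600.2 and 296 CPM in treated control, 694, 644 and 789 CPM in naive Sox2Hi and 681 and 386 CPM in treated Sox2Hi libraries. It was the second highest member per kb and was called in no contrast of the fit over all libraries.
Sprr1a, a precursor of the cornified envelope, stood at 39.7, 13.9 and 116 CPM in the naive control libraries, 65.7 and 32 CPM in treated control, 137, 62.8 and 56.95 CPM in naive Sox2Hi and 132 and 129.6 CPM in treated Sox2Hi libraries. The treated Sox2Hi libraries lay above the treated control libraries (log2 fold change 1.42, SE 0.71, edgeR adjusted p = 0.17), without a call in that fit. Sprr1b ranged from 0.1201 to 12.5 CPM and Ivl, the envelope precursor involucrin, from 0.768 to 5.69 CPM. Neither was called in the fit over all libraries, and Ivl was lower in the blocked naive fit.

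A wider list of 61 epithelial genes, chosen with the members' results known, was read in the same fit, and expected background made up over 50% of the reads of 14 of them. It held 3 genes that rose and 17 that fell with treatment in control tumours (12.5% and 36.1% over all genes), and 2 and 1 in Sox2Hi tumours (3.36% and 1.66%). With the Sox2Hi graft 3 were higher and 1 lower when naive (0.911% and 4.9% over all genes), and 7 higher and 0 lower when treated (9.69% and 3.29%). In the blocked naive fit 11 were higher and 6 lower, against 4.5% and 15.7%. The counts moved with the scaling: for treatment in control tumours 4 rose and 7 fell with factors from all genes, 0 and 35 with library totals and 4 and 4 with DESeq2, fits whose counts over all genes are given above. For the treated grafts DESeq2 called 3 of the list higher and 5 lower, against 602 and 4805 over all genes. Krt4, a keratin of mucosal squamous epithelium, was the most changed, at 1.24, 1.63 and 1.57 CPM in the naive control libraries, 0.298 and 0.6604 CPM in treated control, 8.07, 13.6 and 8.26 CPM in naive Sox2Hi and 20.1 and 3.205 CPM in treated Sox2Hi libraries. Its graft difference was 2.75 (SE 0.53, edgeR adjusted p = 0.038) when naive and 4.54 (SE 0.77, edgeR adjusted p = 0.013) when treated.
Ocln, the tight junction protein occludin, was higher in naive Sox2Hi libraries by 1.60 (SE 0.26, edgeR adjusted p = 0.038), and the protease inhibitor Spint2 by 0.69 (SE 0.16, edgeR adjusted p = 0.04). The transcription factor Tfap2c gave -1.22 (SE 0.21, edgeR adjusted p = 0.038). In treated tumours Ppl, the envelope protein periplakin, was higher by 1.503 (SE 0.31, edgeR adjusted p = 0.02) and Pkp2, a desmosomal plakophilin, by 1.79 (SE 0.38, edgeR adjusted p = 0.021). Expected background made up 64.6% of the Pkp2 reads.
With treatment in control tumours Calml3, a calmodulin-like protein of epithelium, rose by 1.48 (SE 0.48, edgeR adjusted p = 0.026). Gjb2, the connexin 26 gap junction protein, rose by 2.31 (SE 0.86, edgeR adjusted p = 0.043), but gave -1.71 with an edgeR adjusted p of 0.091 without control treated replicate 1. The clathrin adaptor subunit Ap1m2 fell by 1.74 (SE 0.37, edgeR adjusted p = 0.004), Krt76, a keratin of oral epithelium, by 1.97 (SE 0.58, edgeR adjusted p = 0.016) and Pkp2 by 2.04 (SE 0.35, edgeR adjusted p = 0.0014). In Sox2Hi tumours Cldn8, a claudin, rose by 1.30 (SE 0.33, edgeR adjusted p = 0.045) and Fermt1, the integrin-binding protein kindlin-1, fell by 1.16 (SE 0.27, edgeR adjusted p = 0.033). The Cldn8 call was lost in 12 of its 16 alternative runs, DESeq2 and background subtraction among them, and that of Fermt1 in 5 of 17.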

How the data were processed

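The authors deposited 1 table of estimated counts per gene for all 10 libraries, made from total RNA with a low-input kit per the labels' protocols. The submitters' processing notes name kallisto 0.44.0 and mm10; the annotation, strand setting and rounding are not given in the sources used here. Of 55385 mouse gene identifiers, 55144 matched GENCODE M21; 96 spike-in and transgene rows took under 0.01% of counts and were left out. Values were whole numbers. Genes passing filterByExpr (29648) were fitted with edgeR 4.0.16 (R 4.3.3, quasi-likelihood F-test, 4 group means, all 10 libraries, Benjamini-Hochberg over all genes, called under 0.05), with TMM factors from the 11270 genes that average 5 CPM or more, since silent-gene background differed between libraries; these factors were 0.71 and 0.725 in treated control and 0.873 to 1.22 elsewhere. Expected background is the median count per kb of 1464 silent receptor genes times exon length. The fits were tested on simulated data. Samples were grouped by title. The labels state no pairing of naive libraries: it was taken from the deviations of the 3 same-numbered pairs, which correlated at 0.269, 0.327 and 0.474. Libraries of a group differed by at least 12.5 chi-square per degree of freedom, so none is the same library counted again. This check cannot tell separate libraries made from 1 RNA sample.

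The members and lists were chosen with earlier results of these data known. Values in every library are given for members averaging 20 CPM or more and for those called in a contrast; of the wider list, at most 3 called genes in each direction per contrast are named, if they average 1 CPM or more; 1 gene that this rule names is not reported here. Alternatives were other scaling (all genes, RLE, totals), filters, DESeq2 1.42.0, limma-voom (limma 3.58.1), the compared groups alone, replicate blocks, background subtraction, a Ddx3y covariate and leaving out each library; the block in the naive libraries alone was chosen after seeing the data.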

Additional observations from a re-analysis of the deposited data

Results flagged for a closer look

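The treatment response differed between the grafts for 8 of the 61 genes of the wider epithelial list by edgeR's interaction test, all in the higher direction, against 26.8% higher and 4.41% lower over all genes. The direction turned with the scaling. With factors from all genes 2 were higher and 3 lower, against 3328 and 4829 over all genes. With DESeq2 0 were higher and 4 lower, against 1183 and 6488 over all genes. The 3 given here are those the naming rule takes, and the difference is the response in Sox2Hi minus that in control tumours on the log2 scale. For the transcription factor Tfap2c the difference was 2.07 (SE 0.35, edgeR adjusted p = 0.0037), with treated libraries below naive ones in control tumours and above them in Sox2Hi tumours. For the plakophilin Pkp2 it was 1.86 (SE 0.46, edgeR adjusted p = 0.014), and for St14, the membrane protease matriptase, 1.17 (SE 0.27, edgeR adjusted p = 0.011). The median over all genes was 0.85 in this fit, so part of each difference is shared with genes at large. The calls of Pkp2 and St14 were lost with factors from all genes and with DESeq2, and that of Tfap2c with DESeq2.

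Reads of the reporter transgene tdTomato stand outside the gene comparisons. They numbered 259, 135 and 234 in the naive control libraries, 320 and 514 in treated control, 314, 223 and 192 in naive Sox2Hi, and 443 and 232 in treated Sox2Hi libraries.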

How the results depend on the processing

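Of the 45 single-gene results, 4 were called in every alternative run (Cldn1 and Itga6, Pkp2 and Ap1m2, all for treatment in control tumours), and 2 reversed without control treated replicate 1, Krt79 (-1.40) and Gjb2 (-1.71), which gave 3.64 and 3.30 without control treated replicate 2. Counts of members called moved as follows. Treatment in control tumours gave 12, against 4 with factors from all genes, 26 with library totals only and 4 with DESeq2. Their counts over all genes are given above. A replicate block by description number gave 1 higher and 6 lower (3482 and 9440 over all genes). Treatment in Sox2Hi tumours gave 3, all lower. Every gene that had a count gave 1 higher and 5 lower (1087 and 586 of 53207 genes), and DESeq2 0 and 6 (962 and 2253 over all genes). Limma-voom gave 0 and 6 (2277 and 1249), and only the groups compared gave 2 and 5 (1727 and 1099 of 26863). The naive graft comparison gave 4, against 1 with RLE (10 higher and 3 lower over all genes) and 0 with library totals (13 and 10). It gave 8 with DESeq2 and 0 with background subtracted, and 2 with only the groups compared (52 and 35 of 26807 genes). Limma-voom gave 15 (8 higher and 7 lower, against 1884 and 7506 over all genes). A replicate block by title number gave 7 higher and 2 lower over all libraries (491 and 2001 over all genes) and 17 in the naive libraries alone. The treated graft comparison gave 8, all higher, against 3 higher and 4 lower with DESeq2 and 5 higher with background subtracted. Factors from all genes gave 2 higher and 2 lower (1226 and 2853 over all genes). A replicate block by description number gave 4, all higher (1950 and 556 over all genes). The interaction gave 0, against 2 lower with factors from all genes (3328 higher and 4829 lower over all genes). Library totals gave 1 higher (12152 and 313), DESeq2 3 lower and limma-voom 1 higher. A replicate block by title number gave 1 higher (8088 and 1809 over all genes) and the Ddx3y covariate 1 higher (7487 and 1158). Leaving out 1 library gave 9 to 18, 0 to 2, 0 to 7, 0 to 5 and 0 to 5 in that order. The cause was not tested. The members' median log2 change also changed sign: in the interaction from 0.32 to -0.28 with factors from all genes and -0.49 with DESeq2, in the naive graft comparison from -0.26 to 0.0054 and 0.073, and for treatment in control tumours from -0.46 to 0.084 with DESeq2. The treated graft median, -0.037, took either sign, up to 0.79 without control treated replicate 1. Fewer than 4 libraries a group limit the precision, and expected background made up over 20% of the reads of Krt1, Krt79, Krt80, Ivl and Dsg2. For 3 of the 4 treated libraries the replicate number differs between title and description, and blocks by either number are among the alternatives above.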
